A study of Drosophila melanogaster with 8 samples.

Results

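Growth of a cell needs new ribosomes, and their RNA is made and folded in the nucleolus. The transcription factor Myc, with its partner Max, is known in flies and mammals for raising the expression of the genes that build ribosomes. In the nucleolus, RNA polymerase I transcribes ribosomal RNA, small nucleolar ribonucleoproteins (snoRNPs) modify its nucleotides, and assembly factors process and package it. In Drosophila, such genes are known to be strongly expressed in growing cells. The neuroblasts named below are the neural stem cells.

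The genes described here are Myc and 9 nucleolar growth genes, chosen by symbol: 10 of the 17321 genes in both deposited tables. By role they are the transcription factor Myc; RpI135, the second largest subunit of RNA polymerase I (now named Polr1B); Fib and nop5 of the C/D box snoRNPs, which methylate ribosomal RNA; NHP2 and Nop60B of the H/ACA snoRNPs, which convert uridine to pseudouridine; Nopp140, a chaperone of snoRNPs; and the assembly factors pit, a DEAD box RNA helicase, Nnp-1, a relative of a yeast factor for ribosomal RNA processing, and mbm, a nucleolar protein known for its part in neuroblast growth. All 10 genes had at least 1 RPKM in all 8 libraries and passed the filter on low values in each fit.

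RNA of whole embryos, frozen in collections of 50 mg and covering stages 8 to 16, was sequenced in 2 experiments with 2 libraries per group, which the labels call biological replicates. Every group carried the driver da-Gal4, which is active throughout the embryo. In experiment 1, Quad embryos (n = 2) carried it with UAS transgenes for the early neural factors ase, Kr, wor and SoxN, and Ctrl embryos (n = 2) carried the driver over OregonR. In experiment 2, QuadD embryos (n = 2) carried it with UAS-ase-Vp16 (an added activation domain), UAS-wor-EnR and UAS-SoxN-EnR (an added repressor domain) and wild-type UAS-Kr, and Ctrl-D embryos (n = 2) again carried the driver over OregonR. Each experiment ran on a lane of its own, so experiment and lane cannot be told apart, nor can the OregonR background of both controls be told apart from the lack of transgenes. In such bulk RNA, fewer cells of a type and less RNA per cell cannot be told apart.

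The levels of ase, Kr, wor and SoxN were looked at first. Such a level may hold reads of the gene's own copy and of its transgene, which cannot be told apart here. The 6 neuroblast markers described below had no transgene. They rose by 1.25 to 1.66 in Quad and by 1.32 to 1.71 in QuadD (log2). In Quad, ase, wor and Kr rose by 1.77, 2.00 and 1.328 on the log2 scale (limma, adjusted p between 9.67e-05 and 0.00123), and SoxN stood at 109.2 ± 16.1 against 84.8 ± 1.18 RPKM (SD, n = 2, adjusted p = 0.0536). In QuadD, ase and wor rose by 1.60 and 2.08 and SoxN by 0.41, whereas Kr stood at 66.1 ± 1.85 against 63.3 ± 8.29 RPKM (adjusted p = 0.637). The deposited read counts, incomplete for many genes, summed to between 2765722 and 6740835 per library. Relative to QuadD replicate 1, the deepest library, depth was between 82.9% and 87.2% in experiment 1, 42.5% in QuadD replicate 2 and 39.6% to 41.5% in Ctrl-D.

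Levels are the deposited RPKM (reads normalised to transcript length and to the size of the library). The lengths and the read assignment behind them are not given, so the order of different genes is a description. Other annotated genes share 61.2% of the exon bases of Myc and 15.3% of those of Nop60B. In Ctrl, the mean levels ran from 719.1 RPKM for Nop60B and 563 RPKM for Fib, through nop5, NHP2, Nopp140, pit and Nnp-1, to 55.8 RPKM for mbm, 39.7 RPKM for Myc and 33.2 RPKM for RpI135. The Ctrl libraries of neighbours in this order did not overlap. Ctrl-D had the same order, with overlap between pit and Nnp-1. In Quad the order of the means was again the same, but 5 neighbouring pairs overlapped, among them Nop60B with Fib and Myc with RpI135. In QuadD, Fib at 462 ± 36.1 RPKM and Nop60B at 434.5 ± 26.9 RPKM overlapped, as did nop5 with Nopp140 and RpI135 with Myc (SD, n = 2 each); Nopp140 there lay above NHP2 without overlap.

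**Figure D1:**
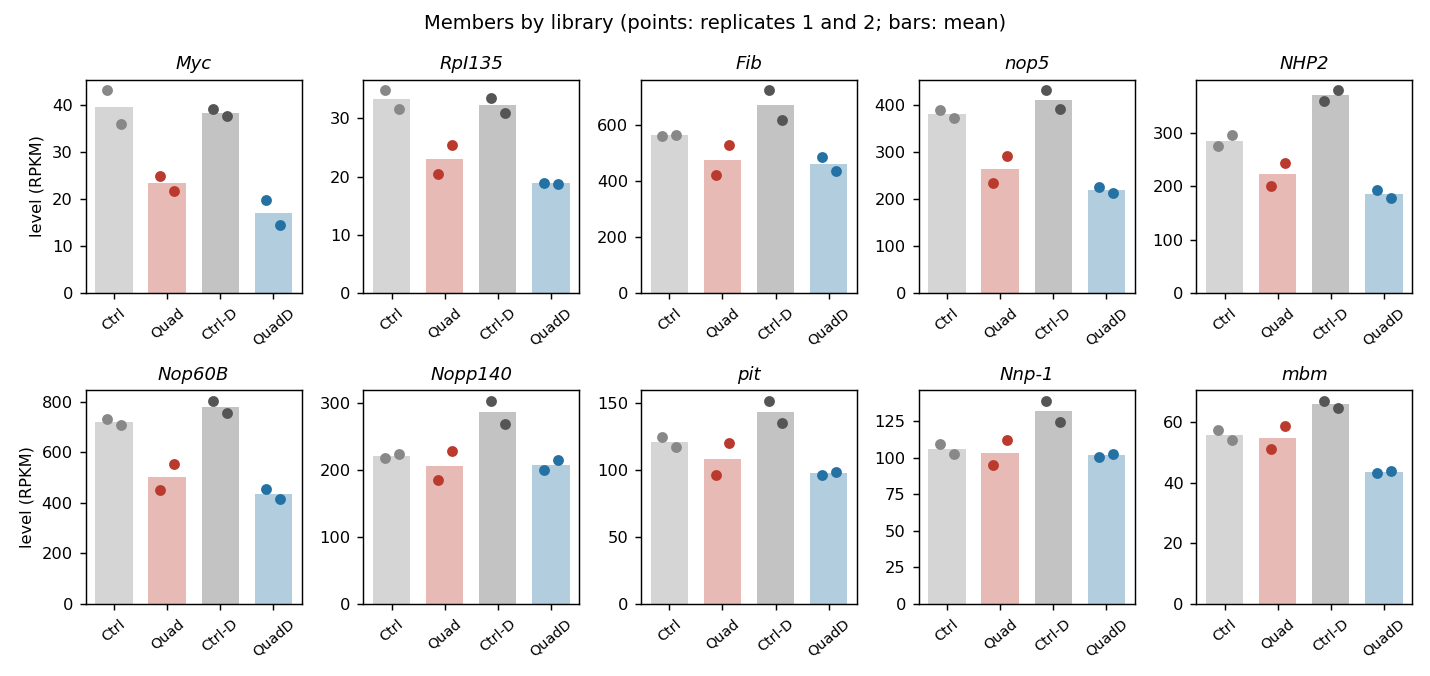
Level of each gene in RPKM (vertical axis, from 0, a scale of its own per panel) in the 4 groups; points are the libraries of replicates 1 and 2 and bars the group means. Myc, RpI135, Fib, nop5, NHP2 and Nop60B lie below the control in both Quad libraries and in both QuadD libraries, whereas Nopp140, pit, Nnp-1 and mbm overlap the control in Quad only.

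Myc was at 43.3 and 36.1 RPKM in the Ctrl libraries and at 25.0 and 21.8 RPKM in the Quad libraries. It was at 39.3 and 37.6 RPKM in Ctrl-D and at 19.9 and 14.5 RPKM in QuadD. Both misexpression groups lay below every driver-only library. The fall was 0.73 ± 0.15 on the log2(RPKM + 1) scale in Quad (SE; a log2 fold change of -0.73, adjusted p = 0.00824) and 1.14 ± 0.16 in QuadD (log2 fold change of -1.14, adjusted p = 0.00229). Each adjusted p here comes from limma, with the Benjamini-Hochberg method applied over the whole table. In linear means, Myc was 1.70-fold lower in Quad and 2.24-fold lower in QuadD. Without Ctrl replicate 1 the Quad value was -0.61 and was no longer called.

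The annotation shows what the Myc value can hold. In the Ensembl annotation of assembly BDGP6, the noncoding gene CR44999 on the same strand shares 1859 of the 9170 exon bases of Myc, and the coding gene CG12535 on the opposite strand shares 3754. CR44999 was at 86.6 and 67.5 RPKM in Ctrl, 47.8 and 42.3 in Quad, 80.7 and 71.5 in Ctrl-D and 38.4 and 28.6 in QuadD. Divided by Myc, these levels gave a ratio between 1.87 and 2.05 in all 8 libraries. CR44999 was looked up after the values of Myc had been seen; its log2 fold changes were -0.75 ± 0.15 in Quad and -1.17 ± 0.15 in QuadD (SE, adjusted p = 0.00782 and 0.00172). CG12535 stayed between 0.59 and 1.69 RPKM. How the authors assigned reads of overlapping genes, and whether they used strand, is not given in the sources used here. The reads of Myc and CR44999 cannot therefore be told apart.

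RpI135, the gene of the lowest level in the controls, was lower in both misexpression groups. It was at 34.8 and 31.6 RPKM in Ctrl and at 20.5 and 25.4 RPKM in Quad. In the second experiment it was at 33.5 and 30.9 RPKM in Ctrl-D and at 18.9 and 18.8 RPKM in QuadD. The groups did not overlap in either experiment. It fell by 0.52 ± 0.15 in Quad (SE, log2, adjusted p = 0.0311) and by 0.74 ± 0.11 in QuadD (adjusted p = 0.00245). The Quad call was lost when either Ctrl library was left out (-0.45 without replicate 1, -0.59 without replicate 2). For this gene the deposited reads were proportional to RPKM, from 715 reads in QuadD replicate 2, where counting alone gives an SD of 3.74%, to 2674 reads in Ctrl replicate 1.

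Of the C/D box pair, nop5 (the fly Nop58 protein, a scaffold of the particle) moved more than Fib (fibrillarin, its methyltransferase). The levels of nop5 were 391 and 373 RPKM in Ctrl, 235 and 293 in Quad, 433 and 392 in Ctrl-D and 226 and 213 in QuadD. Those of Fib were 562 and 564 RPKM in Ctrl, 421 and 528 in Quad, 725 and 619.8 in Ctrl-D and 487 and 436 in QuadD. For both genes each misexpression group lay wholly below its control. The gene nop5 fell by 0.54 ± 0.12 in Quad (SE, log2, adjusted p = 0.0138; -0.50 and not called without Ctrl replicate 1) and by 0.91 ± 0.09 in QuadD (adjusted p = 0.000638). Fib fell by 0.54 ± 0.11 in QuadD (adjusted p = 0.00893; -0.46 and not called without QuadD replicate 2), and in Quad it stood at -0.26 ± 0.12 (adjusted p = 0.137). Without Quad replicate 2 the Quad value of Fib was -0.42 and passed, and without Quad replicate 1 it was -0.09. The ratio of nop5 to Fib was 0.695 and 0.661 in Ctrl against 0.559 and 0.555 in Quad, and 0.597 and 0.632 in Ctrl-D against 0.464 and 0.489 in QuadD. The groups of each experiment did not overlap in this ratio, which was not tested.

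Of the H/ACA pair, Nop60B (the pseudouridine synthase, fly dyskerin) was at 730.5 and 708 RPKM in Ctrl and at 452 and 554 RPKM in Quad. It was at 805 and 755 RPKM in Ctrl-D and at 454 and 415 RPKM in QuadD. NHP2, a small RNA-binding protein of the same particle, was at 275 and 295 RPKM in Ctrl, 199.8 and 244 in Quad, 360.0 and 379.8 in Ctrl-D and 192 and 178 in QuadD. For both genes the groups of each experiment did not overlap, and the distance was wider in the second experiment. Nop60B fell by 0.52 ± 0.12 in Quad and 0.84 ± 0.09 in QuadD (SE, log2, adjusted p = 0.0141 and 0.000898), and its Quad value was -0.50 and not called without Ctrl replicate 1. NHP2 fell by 0.37 ± 0.12 in Quad (adjusted p = 0.0449), the called value nearest to the threshold, and by 0.99 ± 0.08 in QuadD (adjusted p = 0.000379), which had the smallest p of the 10 genes there. The NHP2 call in Quad was lost without Ctrl replicate 1 (-0.42), Ctrl replicate 2 (-0.31) or Quad replicate 1 (-0.22). The ratio of NHP2 to Nop60B was between 0.376 and 0.503 over the 8 libraries, and its shift was opposite in the experiments: 0.376 and 0.417 in Ctrl against 0.442 and 0.440 in Quad, and 0.447 and 0.503 in Ctrl-D against 0.424 and 0.429 in QuadD. The groups of each experiment did not overlap in this ratio, which was not tested either.

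Nopp140, which moves between nucleolus and cytoplasm and binds both kinds of snoRNP, was at 217 and 224 RPKM in Ctrl and at 185 and 228 RPKM in Quad. It was at 304 and 269 RPKM in Ctrl-D and at 200.1 and 214 RPKM in QuadD. The Quad libraries lay on both sides of Ctrl, with a log2 fold change of -0.10 ± 0.12 (SE, adjusted p = 0.512). In QuadD it fell by 0.46 ± 0.09 (adjusted p = 0.00817; -0.41 and not called without QuadD replicate 1). The group means of Quad and QuadD were 206.7 ± 30.4 and 207.3 ± 10.1 RPKM, and those of Ctrl and Ctrl-D were 220.5 ± 4.26 and 286 ± 24.4 RPKM (SD, n = 2 each).

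The 3 assembly factors shared 1 arrangement of the libraries. The helicase gene pit was at 125 and 118 RPKM in Ctrl, 96.6 and 120.2 in Quad, 152 and 135 in Ctrl-D and 96.5 and 98.8 in QuadD. Nnp-1 was at 109.5 and 103 RPKM in Ctrl, 94.9 and 112 in Quad, 139 and 124 in Ctrl-D and 101 and 103 in QuadD. The neuroblast growth gene mbm was at 57.4 and 54.1 RPKM in Ctrl, 51.0 and 58.6 in Quad, 67.1 and 64.6 in Ctrl-D and 43.0 and 43.9 in QuadD. In each, Quad replicate 1 lay below both Ctrl libraries and Quad replicate 2 between or above them, whereas both QuadD libraries lay below both Ctrl-D libraries. In Quad the log2 fold changes were -0.17 ± 0.12 for pit, -0.04 ± 0.11 for Nnp-1 and -0.03 ± 0.11 for mbm (SE, adjusted p = 0.307, 0.774 and 0.857). The Quad value of pit was -0.32 and passed without Quad replicate 2, and was -0.01 without Quad replicate 1. The 95% confidence interval of mbm in Quad ran from -0.30 to 0.25. In QuadD the falls were 0.55 ± 0.09 for pit, 0.37 ± 0.09 for Nnp-1 and 0.59 ± 0.09 for mbm (SE, adjusted p = 0.00381, 0.0149 and 0.00251). The Nnp-1 call in QuadD was lost without QuadD replicate 1 (-0.36) or QuadD replicate 2 (-0.38).

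Counted together, 5 of the 10 genes fell in Quad (Myc, RpI135, nop5, NHP2 and Nop60B) and none rose, beside 22.6% of the 10436 genes tested that fell and 47.5% called in either direction. In QuadD all 10 fell, beside 27.7% of the 10207 genes tested that fell and 55.0% called in either direction. The median log2 fold change of the 10 genes was -0.31 in Quad and -0.66 in QuadD, against 0.05 and 0.03 over all genes tested. The Quad median was -0.16 without Quad replicate 1 and -0.46 without Quad replicate 2. In Quad the libraries of 6 genes lay wholly below Ctrl, as did those of 35.6% of all genes tested, while 41.5% lay wholly above. In QuadD those of all 10 did, as did 39.1% of all genes, while 42.2% lay wholly above. The count in Quad was 0 without Ctrl replicate 1, 3 without Ctrl replicate 2, 4 without Quad replicate 1 and 7 without Quad replicate 2. The count in QuadD was 8 without either QuadD library and 10 without either Ctrl-D library. With no filter on low values, which brought 17321 genes into the fit, the log2 fold changes were the same and the counts were 0 in Quad and 6 in QuadD.

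**Figure D2:**
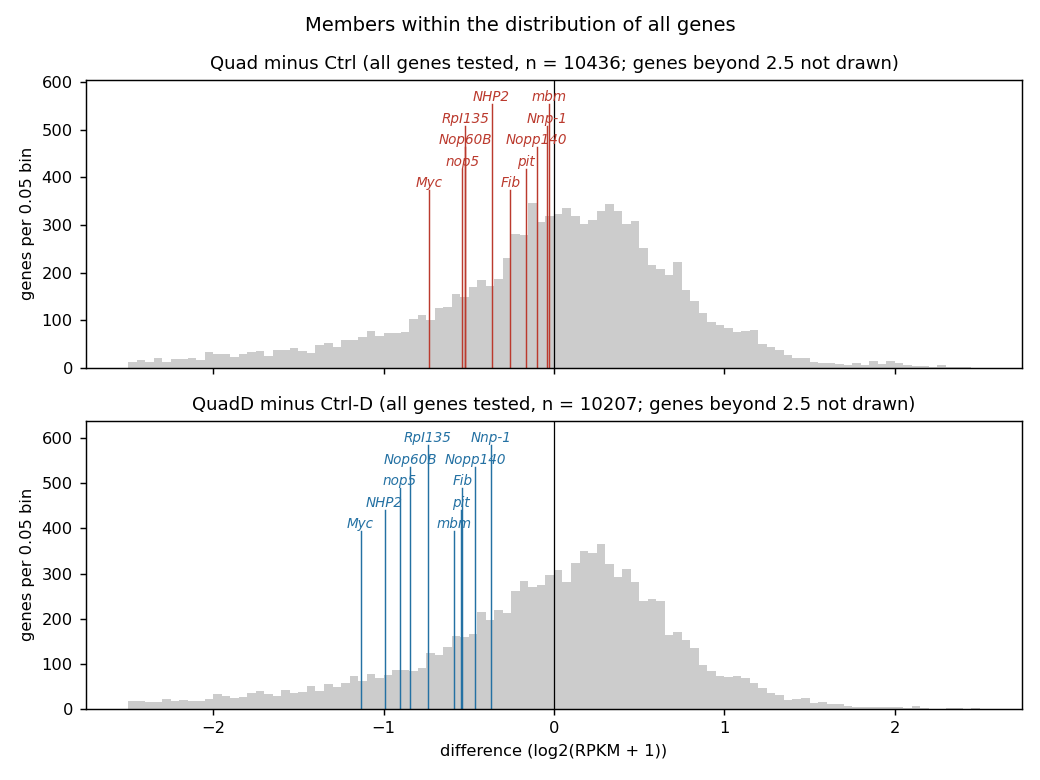
Number of genes per bin (vertical axis) of the log2(RPKM + 1) difference from the control (horizontal axis) for all genes tested in Quad (upper panel, 10436 genes) and QuadD (lower panel, 10207 genes), with lines at the 10 named genes. The lines run from -0.73 for Myc to -0.03 for mbm in Quad, and from -1.14 for Myc to -0.37 for Nnp-1 in QuadD.

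Whether the fall differed between the 2 transgene sets was tested as the difference of both effects in a fit of all 8 libraries. The difference, effect of Quad minus effect of QuadD, was above 0 for all 10 genes, from 0.22 ± 0.18 for RpI135 to 0.63 ± 0.15 for NHP2 and 0.56 ± 0.14 for mbm (SE, log2). Over all 10775 genes tested, the median was 0.06 and 4514 lay below 0. The values of the 10 genes rest on the same 8 libraries. None passed in limma (adjusted p from 0.0747 for NHP2 and 0.0799 for mbm to 0.605 for RpI135), beside 2.70% of the 10775 genes tested that passed in either direction and 1.76% that passed above 0. At an unadjusted p under 0.05 there were 5 of the 10, NHP2, mbm, nop5, pit and Nopp140, beside 16.3% of all genes tested. Limma's voom on the deposited reads could be run for 5 of the 10 (RpI135, Fib, nop5, Nnp-1 and mbm) and called none. It could not test NHP2. Without Quad replicate 1, NHP2 (0.77) and mbm (0.66) passed.

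**Figure D3:**
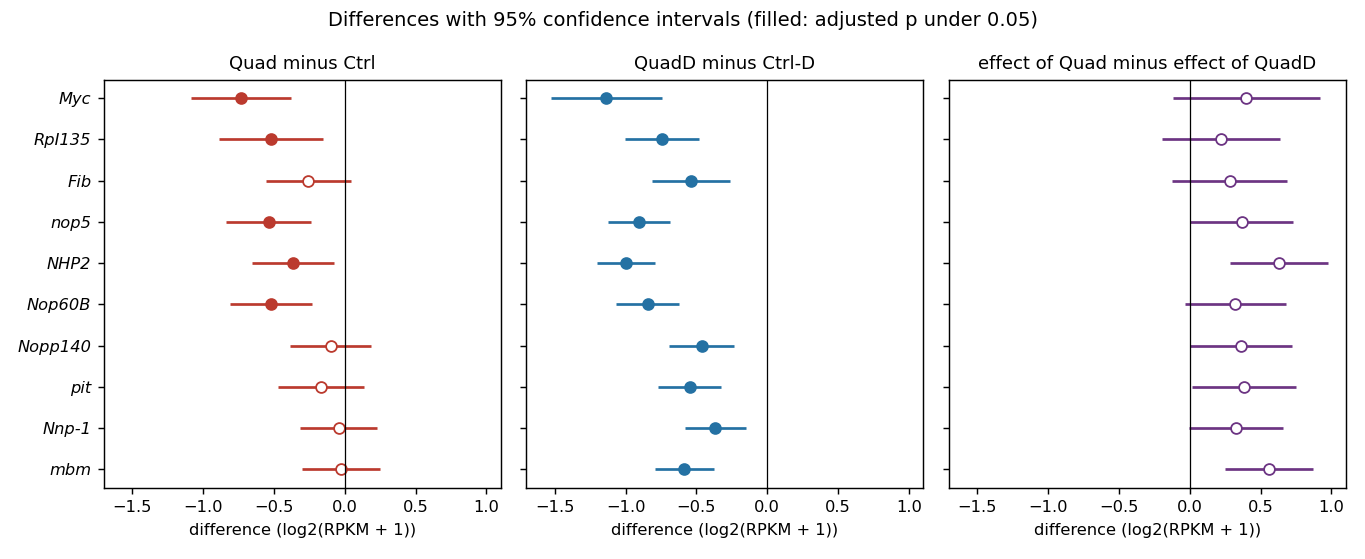
Differences on the log2(RPKM + 1) scale (horizontal axis) with 95% confidence intervals for the 10 genes in Quad against Ctrl, QuadD against Ctrl-D, and the difference of both effects; filled points have an adjusted p under 0.05. In the left panel 5 points are filled, in the middle panel all 10 and in the right panel none.

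The driver-only groups, which share their genotype by the labels, differed in level as well. In Ctrl, 8 of the 10 genes lay wholly below Ctrl-D, as did 31.2% of all genes tested, while 29.3% lay wholly above; Myc and RpI135 overlapped. The largest differences, Ctrl minus Ctrl-D, were -0.38 ± 0.11 for NHP2 and -0.37 ± 0.11 for Nopp140 (SE, log2, adjusted p = 0.0929 for NHP2, the smallest of the 10). None of the 10 passed in limma, beside 1.23% of genes tested in either direction (0.752% higher and 0.483% lower in Ctrl). At an unadjusted p under 0.05 there were 4 of the 10, beside 25.4% of all genes tested. Voom called none of the 5 it could test, but NHP2 and Nopp140 were not among these 5. Both NHP2 and Nopp140 passed without Quad replicate 1 and without Quad replicate 2, which enter this fit only through the estimate of spread. Myc stood at 39.7 ± 5.06 RPKM in Ctrl and 38.4 ± 1.19 RPKM in Ctrl-D (SD, n = 2 each; difference 0.04 ± 0.16, adjusted p = 0.901).

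In Quad, the 9 nucleolar genes and Myc differed in how the replicates departed from each other. Between the Quad libraries, replicate 2 minus replicate 1, all 9 nucleolar genes lay higher in replicate 2, by 0.20 to 0.33 on the log2(RPKM + 1) scale with a median of 0.30, while Myc lay lower (-0.19). Over 9585 genes the median of this difference was 0.01, with quartiles at -0.23 and 0.17. In the other groups the median of the 9 genes was -0.07 in Ctrl, -0.14 in Ctrl-D and -0.01 in QuadD. Of the 9 genes, 6 in Ctrl, 8 in Ctrl-D and 5 in QuadD were lower in replicate 2, the direction of Myc. Myc was lower in replicate 2 of every group, by 0.06 in Ctrl-D to 0.43 in QuadD. The summed level of the 9 genes per unit of Myc was accordingly 57.8 and 68.4 in Ctrl, 70.2 and 99.3 in Quad, 76.8 and 73.7 in Ctrl-D and 91.6 and 119 in QuadD.

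**Figure D4:**
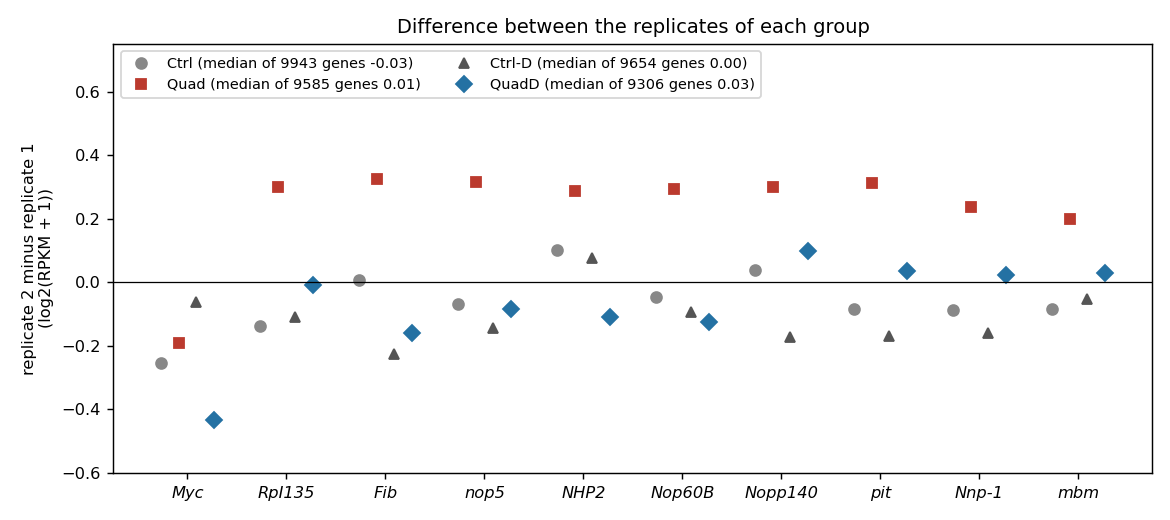
Difference between replicate 2 and replicate 1 on the log2(RPKM + 1) scale (vertical axis) for each gene in each group, with the median over all genes of at least 1 RPKM in the legend. The 9 nucleolar genes lie between 0.20 and 0.33 in Quad, and Myc lies below 0 in all 4 groups.

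Other genes of the same machinery were taken from lists written with earlier results of these data known. Beside them, 22.6% of all genes tested fell in Quad and 27.7% in QuadD. Of 4 further snoRNP genes, 2 fell in Quad and 4 in QuadD; the Quad count was 1 without Ctrl replicate 1, Ctrl replicate 2 or Quad replicate 1, and 3 without Quad replicate 2. Among them hoip, the RNA-binding protein of the C/D box particle, was at 287 and 301 RPKM in Ctrl, 169.6 and 221 in Quad, 359 and 402 in Ctrl-D and 151 and 169 in QuadD. It fell by 0.60 ± 0.14 in Quad and by 1.24 ± 0.10 in QuadD (SE, log2, adjusted p = 0.0133 and 0.000312), and kept both calls without each single library, but not its Quad call with no filter on low values. Nop56, the partner of nop5, stood at -0.29 ± 0.10 in Quad (adjusted p = 0.0549) and fell by 0.74 ± 0.08 in QuadD (adjusted p = 0.0008). The Quad value of Nop56 passed with quantile normalization, RLE scaling, the replicate block, all 8 libraries in the fit, voom (-0.29) and without Quad replicate 2. CG4038, the fly Gar1 of the H/ACA particle, fell by 0.34 ± 0.10 in Quad (adjusted p = 0.0372) and by 0.51 ± 0.08 in QuadD (adjusted p = 0.00354). It was not called in Quad when Ctrl replicate 1, Ctrl replicate 2 or Quad replicate 1 was left out, nor in QuadD without QuadD replicate 2.

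Of 7 further genes of RNA polymerase I and its initiation, 1 fell and 2 rose in Quad, and 5 fell and 1 rose in QuadD. Among all genes tested, 22.6% fell and 24.9% rose in Quad, and 27.7% fell and 27.4% rose in QuadD. The falls numbered 0 without Ctrl replicate 1 and 2 without Quad replicate 2 in Quad, and 3 without either QuadD library in QuadD. The single rise in QuadD was lost without Ctrl-D replicate 2 or either QuadD library, with RLE scaling and with the replicate block. RpI1, the largest subunit (now Polr1A), was at 51.7 and 44.7 RPKM in Ctrl, 29.5 and 32.8 in Quad, 46.5 and 46.4 in Ctrl-D and 26.8 and 25.0 in QuadD. It fell by 0.61 ± 0.13 in Quad (SE, log2, adjusted p = 0.0101; -0.51 and not called without Ctrl replicate 1) and by 0.82 ± 0.10 in QuadD (adjusted p = 0.00118). The genes that rose in Quad were TAF1B (0.67 ± 0.12) and udd (0.43 ± 0.12), both known for a part in starting transcription of ribosomal RNA genes; the udd call was lost with RLE scaling (0.37) and without Ctrl replicate 1, Ctrl replicate 2 or Quad replicate 2. Of 24 ribosome assembly genes 4 fell in Quad and none rose, and 15 fell and 2 rose in QuadD, beside the 22.6% and 27.7% of all genes tested that fell. The falls in Quad numbered 0 without Ctrl replicate 1 or Ctrl replicate 2, 2 without Quad replicate 1 and 8 without Quad replicate 2. In QuadD, 10 fell without QuadD replicate 1, and none rose without either QuadD library, with RLE scaling or with the replicate block. Among them nclb, which encodes a nucleolar protein, fell by 1.00 ± 0.10 in QuadD (adjusted p = 0.000619) and Ns1, the nucleostemin gene, by 0.68 ± 0.08 (adjusted p = 0.00111).

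Genes around Myc and the growth pathway did not share one direction. Of 12 partners and regulators of Myc, 6 rose and none fell in Quad, and 5 rose and 1 fell in QuadD, beside 24.9% and 27.4% of all genes tested that rose. In Quad the count of rises dropped to 3 without Ctrl replicate 1 and to 2 without Ctrl replicate 2. In QuadD it was 3 without Ctrl-D replicate 2, 2 without QuadD replicate 1, 3 without QuadD replicate 2 and 3 with the replicate block. The gene hfp, which encodes a repressor of Myc transcription, was at 113 and 111 RPKM in Ctrl, 174 and 178 in Quad, 148 and 132 in Ctrl-D and 215 and 211 in QuadD, and rose in both (0.65 ± 0.08 and 0.60 ± 0.09, adjusted p = 0.00184 and 0.00247). Psi, an activator of Myc transcription, rose by 0.54 ± 0.09 in Quad (adjusted p = 0.00395) and by 0.47 ± 0.11 in QuadD (adjusted p = 0.0116; 0.42 and not called without QuadD replicate 1). The ATPase gene rept, whose product binds Myc, rose by 0.50 ± 0.10 in Quad (adjusted p = 0.00941), not called when either Ctrl library was left out, and by 0.27 ± 0.08 in QuadD (adjusted p = 0.0364). The QuadD call of rept was lost without Ctrl-D replicate 2 or either QuadD library. The gene brat, a translational repressor known to limit Myc in neuroblast daughters, rose by 0.66 ± 0.15 in Quad (adjusted p = 0.0133; 0.50 and not called without Ctrl replicate 2) and by 0.68 ± 0.08 in QuadD (adjusted p = 0.0011). Max stood at -0.28 ± 0.10 in Quad (adjusted p = 0.0556) and fell by 0.37 ± 0.08 in QuadD (adjusted p = 0.0107), and was not called when either QuadD library was left out. Of 12 genes of the TOR and insulin pathways 2 fell and none rose in each comparison, beside 22.6% and 27.7% of all genes tested that fell; foxo, a transcription factor that insulin signalling restrains, fell by 0.94 ± 0.18 in Quad and by 1.43 ± 0.15 in QuadD (adjusted p = 0.0081 and 0.000875). The list had 1 member that fell in Quad without Ctrl replicate 2 and 4 without Quad replicate 1, and 1 in QuadD without either QuadD library. With no filter on low values, no gene of the snoRNP, RNA polymerase I, assembly and TOR lists fell in Quad and 3, 3, 12 and 1 fell in QuadD, while 3 and 4 genes of the Myc list rose.

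**Figure D5:**
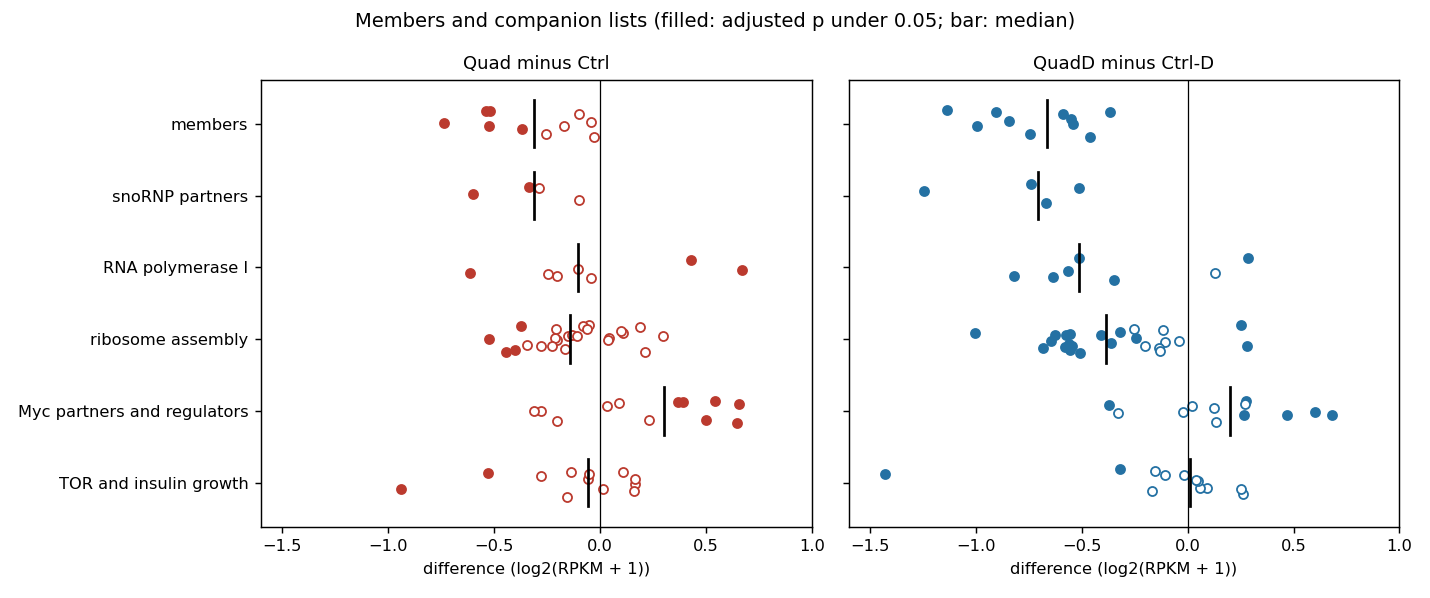
Difference from the control on the log2(RPKM + 1) scale (horizontal axis) for each gene of 6 lists (rows) in Quad and QuadD; filled points have an adjusted p under 0.05, bars are list medians and the vertical spread within a row is only for display. The snoRNP, RNA polymerase I and assembly lists have medians of -0.70, -0.51 and -0.39 in QuadD, and the Myc partner list a median of 0.20.

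Markers of cell types moved with the same groups. Their counts stand beside 24.9% of all genes tested that rose and 22.6% that fell in Quad. The shares in QuadD were 27.4% and 27.7%. The summed level of 6 neuroblast markers was 416 to 439.9 RPKM in Ctrl and 1199 to 1232 in Quad, and 487 to 622 in Ctrl-D and 1615 to 1628 in QuadD, with all 6 called higher in both. The summed level of 6 epidermis and cuticle markers was 1219.8 to 1693 RPKM in Ctrl and 68.6 to 91.3 in Quad, and 786 to 1035 in Ctrl-D and 17.0 to 21.5 in QuadD, with all 6 called lower in both. The 6 midgut markers summed to 1037 to 1048 RPKM in Ctrl and 518 to 534 in Quad, and to 969 to 991 in Ctrl-D and 473 to 591 in QuadD; 5 fell in Quad (3 without either Ctrl library), and 4 fell and 1 rose in QuadD. Most of the fall of the midgut sum lay in Fas3 and bowl. In Quad against Ctrl, Fas3 was at 174 and 145 against 485 and 497 RPKM, and bowl at 39.4 and 49.5 against 153 and 142. Ance was not called in either experiment (log2 fold changes of -0.17 in Quad and 0.02 in QuadD). GATAe stood at -0.91 and -0.37, srp at -0.56 and -0.96, and lab at -0.67 in Quad and 0.85 in QuadD. The 6 salivary gland and trachea markers summed to 239 to 246 RPKM in Ctrl and 87.0 to 91.7 in Quad, and to 216 to 246 in Ctrl-D and 56.7 to 63.4 in QuadD, all 6 falling in both.

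Neuron markers summed to 200.2 to 212 RPKM in Ctrl, 427 and 270.0 in replicates 1 and 2 of Quad, 159.8 to 165 in Ctrl-D and 364 to 384 in QuadD; 2 of 6 rose in Quad (1 without either Ctrl library, 5 without Quad replicate 2) and 6 of 6 in QuadD. Muscle markers summed to 897 to 1078 RPKM in Ctrl, 819 and 488 in replicates 1 and 2 of Quad, 652 to 692 in Ctrl-D and 363 to 408 in QuadD; 3 of 6 fell in Quad (6 without Quad replicate 1) and 6 of 6 in QuadD. Maternal and germ line transcripts summed to 111 to 125 RPKM in Ctrl, 208 to 252 in Quad, 111 to 129 in Ctrl-D and 195 to 219.9 in QuadD; 3 rose in each, of 6 and 5 tested (1 in Quad without Ctrl replicate 2, 1 in QuadD without Ctrl-D replicate 2). With no filter on low values the counts were 0 and 3 rises for neuron markers, 2 and 3 falls for muscle, 3 and 2 falls for midgut and 2 and 1 rises for maternal transcripts in Quad and QuadD. In the main fits, 24.9% of all genes tested rose and 22.6% fell in Quad, and 27.4% rose and 27.7% fell in QuadD. Most of the maternal and germ line sum was stau and smg. In Quad against Ctrl, stau was at 135 and 126 against 93.0 and 83.0 RPKM, and smg at 104 and 68.2 against 18.2 and 16.6. In Quad, nos (0.39), png (-0.32) and vas (-0.04) were not called, and in QuadD vas rose (0.61). No marker in these lists was under 1 RPKM in every library. The rise of osk in Quad was from 0.431 and 0.41 RPKM in Ctrl to 1.11 and 1.32, close to that limit. The part of such shifts in cell makeup or age in the falls of Myc and the nucleolar genes was not tested.

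The annotation also shows what lies within these genes. In the Ensembl annotation of BDGP6, 4 of the 10 genes (Fib, nop5, Nop60B and pit) hold a snoRNA gene within their span on the same strand, Nop60B 7 of them, beside 0.601% of 13986 protein-coding genes. That of pit is annotated in the class snoRNA but bears the name scaRNA:MeU5-G38. Of the exon bases of Nop60B, 15.3% are shared with other annotated genes, mostly such snoRNA genes, so its level may include their reads; for Nnp-1 and Nopp140 the share is 1.67% and 0.65%, and for the other genes but Myc it is 0.

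The genes with a pattern most like Myc over the 8 libraries were sought among 3872 other genes whose mean reached 10 RPKM in each group and that carry a name besides a CG or CR identifier. By Pearson's r of log2(RPKM + 1), they were mbc (r = 0.990), drpr (0.987), pgant5 (0.982), dally (0.981) and nw (0.981). The level of mbc was 79.1 and 67.4 RPKM in Ctrl, 47.9 and 48.7 in Quad, 77.9 and 71.2 in Ctrl-D and 40.7 and 34.2 in QuadD. Nearest to the mean of the other 9 genes were aop (0.992), kni (0.990), Inx3 (0.988), pnt (0.986) and fj (0.986). The level of aop was 158 and 151 RPKM in Ctrl, 106 and 127 in Quad, 204 and 169 in Ctrl-D and 101 and 96.4 in QuadD. The points of each correlation are the same 8 libraries in the same 4 groups, and these values are a description.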

How the data were processed

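For both experiments the authors deposited a table of linear total RPKM per gene and library, per the file headers. The log2 columns that the authors deposited beside them were not used for tests. For the aligner, the counter, the build, the annotation and strand, nothing is given in the sources used here. No coordinates are printed; gene names and overlaps come from RefSeq and from the Ensembl annotation of BDGP6. The deposited raw reads were proportional to RPKM (within 1% or 0.5 of a read) for 4808 genes in all libraries, 5 of the 10 genes among them, and were 0 in every library for 4 others.

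RPKM values were used as log2(RPKM + 1), which understates the change of low genes. Genes that reached 1 RPKM in 2 or more libraries were tested with limma 3.58.1 (R 4.3.3, trended moderated test), adjusted with the Benjamini-Hochberg method at 0.05. Each misexpression group was set against its own control in a fit of 4 libraries; a joint fit of 8 gave the difference of both effects and the contrast of the controls. Each p-value sets a difference of means against a spread that limma draws toward a trend over all genes. With 2 libraries per group, that spread covers only these samples. The fit was tested on simulated data. The 10 genes and all lists were chosen with earlier results of these data known. The genes named are these 10 and, per companion list, from up to 4 with the smallest p in each comparison; up to 5 genes of like pattern were added. Counts of each list cover all its members, and 8 listed symbols of 111 were matched through RefSeq synonyms. Confidence intervals are 95%. Alternatives were a pseudocount of 0.1, no filter or a filter at 5 RPKM, quantile and RLE scaling, all 8 libraries in each fit, the replicate number as a block, voom on the proportional reads and leaving out each library; CR44999 was added after its values were seen.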

Additional observations from a re-analysis of the deposited data

How the results depend on the processing

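In QuadD, all 115 values of the 10 genes under the alternatives were below 0, and 107 kept their side of the threshold; in Quad 110 of 115 were below 0 and 95 kept both direction and side, while 13 were no longer called, 2 became called and 5 changed sign. The changes of sign came from leaving out a library. There the Quad values ran from -0.25 to 0.049 for Nopp140, -0.16 to 0.076 for Nnp-1, -0.13 to 0.071 for mbm and -0.22 to 0.021 for CG7637. The Ctrl minus Ctrl-D values ran from -0.088 to 0.17 for Myc and -0.026 to 0.11 for RpI135. Without a filter on low values, 2696 genes were called in Quad, 3140 in QuadD, 186 for the difference of effects and 78 between the controls, with 0 and 6 of the 10 genes called in Quad and QuadD; the log2 fold changes were the same and the tested genes numbered 17321. Voom, on fewer genes, called 2198, 2266, 102 and 51. Leaving out 1 library gave 2444 to 5325 calls in Quad (0 to 7 of the 10 genes), 3293 to 5128 in QuadD (8 to 10), 126 to 495 for the difference (0 to 2) and 4 to 983 between the controls (0 to 2); a group with 1 library is then assumed to vary like the others. Quantile normalization moved the median of all genes to 0.11 in Quad and 0.14 in QuadD; the 10 genes kept medians of -0.32 and -0.62, and 5 and 10 calls. The cause of these shifts was not tested. RLE scaling gave -0.38 and -0.70 with 5 and 10 calls. The share of higher calls in QuadD was 58.7% with quantile normalization and 46.5% with RLE scaling, against 49.7%.

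Replicate numbers are shared between groups, but no label pairs them, and same-numbered libraries did not deviate together (r = -0.04 over 10436 genes in experiment 1 and -0.09 over 10207 in experiment 2). With the replicate block, 4729 genes were called in Quad, 5339 in QuadD, 215 for the difference of effects and 122 between the controls, with 5, 10, 0 and 0 of the 10 genes. Depth limits RpI135 and mbm most, at 715 and 800 reads in QuadD replicate 2; the depth behind Myc, NHP2, Nop60B, Nopp140 and pit is not known.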
